A study of Mus musculus with 227 samples.

Results

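Oxcarbazepine, Pregabalin, Vigabatrin and Methsuximide are 4 of the 218 drugs applied to primary mouse cerebrocortical cultures in an RNA-seq screen with 1 library per drug and 9 libraries of vehicle-treated cultures. The 4 libraries were chosen by the agent named in their labels; the rule uses no measured value. All cultures, treated and control, came from cerebral cortices of embryonic day 16.5 F1 embryos of an FVB/N x C3B6F1 cross and were treated at 21 days in vitro for 8 h, the controls with 0.2% DMSO. Doses are not given in the sources used here. The cultures are mixed: the neuronal gene Snap25 stood at 421 RPKM ± 56.2 (SD, n = 9) in the vehicles and the astrocyte gene Gfap at 144 RPKM ± 63.0 (SD, n = 9). The microglial gene Cx3cr1 stood at 0.238 RPKM ± 0.439 (SD, n = 9), an SD above its mean. Among the other microglial markers, Aif1, C1qa and Csf1r had higher means and P2ry12 and Tmem119 lower ones. The endothelial gene Cldn5 was at 0 in all vehicles and in the 4 drugs. The endothelial markers Pecam1, Cdh5, Flt1 and Tek had means above 0 and below that of Cx3cr1. Whether Cldn5 could be counted in these data was not tested. In such bulk samples fewer cells of a type and less RNA per cell cannot be told apart.

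The 4 drugs act on neuronal excitability by different routes, and they are compared here because all are used against seizures or belong to that pharmacology. Oxcarbazepine is a carbamazepine relative that blocks voltage-gated sodium channels. Pregabalin is a gabapentinoid: despite its resemblance to GABA it binds the alpha2delta subunits of voltage-gated calcium channels. Vigabatrin is an irreversible inhibitor of GABA transaminase, the enzyme encoded by Abat that breaks down GABA. Methsuximide is a succinimide, a class that acts on T-type calcium channels. Neurons answer firing and calcium entry with a burst of immediate early genes, a usual RNA readout of excitability.

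The 4 libraries held 36.8 M to 42.2 M counts and the vehicles 31.4 M to 43.8 M. Each drug was sequenced under a different run code, taken from the library names: Oxcarbazepine beside 29 other drugs and 2 vehicles, Pregabalin beside 30 other drugs and 1 vehicle, Vigabatrin beside 29 other drugs and 2 vehicles, and Methsuximide beside 15 other drugs and no vehicle. Each drug was therefore compared with the 9 vehicles, most of which came from other runs, and with the other drugs of its own run, whose spread includes the effects of those drugs. With 1 library per drug, every test assumes that a drug's library varies like its reference libraries. A gene was called at a Benjamini-Hochberg adjusted p under 0.05 in edgeR's quasi-likelihood test, and all adjusted p-values below come from that test.

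Of the 4 drugs, Pregabalin had more than 1 called gene. Against the other drugs of its run, 7 of 15808 tested genes passed, 0.0443% of them, and all 7 were higher: Sult1a1, Fam107a, Fkbp5, Mertk, Zbtb16, Tsc22d3 and Glul. No gene was lower, and 1115 genes (7.05%) had an unadjusted p under 0.05. A group of calls was not particular to Pregabalin in this run: Primidone, another antiepileptic drug, had 11 called genes, 10 of them higher (0.0633%). Several of these genes are textbook targets of the glucocorticoid receptor, the nuclear receptor that binds cortisol and its synthetic relatives dexamethasone and betamethasone and that induces Fkbp5 and Tsc22d3 in most tissues.

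Sult1a1, a phenol sulfotransferase (GRCm38 chr7:126672865-126676432, minus strand), stood at 12.3 CPM (counts scaled to library size) in the Pregabalin library, from 523 counts. In the 30 other drugs of the run it ranged from 3.71 to 5.83 CPM with a median of 4.62 CPM, and in the 9 vehicles from 3.76 to 5.52 CPM with a median of 4.89 CPM. Pregabalin thus lay above every library of both references, and the log2 fold change within the run was 1.39 ± 0.15 (SE; adjusted p = 1.12e-06).

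Fkbp5 (chr17:28399094-28517527, minus strand) encodes a co-chaperone of the glucocorticoid receptor that limits the receptor's own signalling. It stood at 65.3 CPM with Pregabalin, at 27.3 to 40.7 CPM in the other drugs of the run (median 33.9 CPM) and at 29.6 to 43.8 CPM in the vehicles (median 36.2 CPM). The log2 fold change within the run was 0.95 ± 0.14 (SE; adjusted p = 0.000937).

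Tsc22d3 (chrX:140539528-140600659, minus strand), also called GILZ, encodes a leucine zipper protein through which glucocorticoids act against inflammation. Its level was 57.0 CPM with Pregabalin, 29.3 to 41.9 CPM in the other drugs of the run (median 33.8 CPM) and 30.9 to 37.1 CPM in the vehicles (median 35.7 CPM), and the log2 fold change within the run was 0.75 ± 0.12 (SE; adjusted p = 0.00127). Zbtb16 (chr9:48654297-48836222, minus strand), which encodes the transcription factor PLZF, stood at 78.4 CPM against 32.7 to 54.1 CPM in the other drugs of the run (log2 fold change 0.86 ± 0.17 SE; adjusted p = 0.0451). Zbtb16 was the exception among the 7 against the vehicles, whose range of 40.7 to 78.1 CPM came close to Pregabalin.

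Fam107a, Glul and Mertk are genes that astrocytes express strongly. Fam107a (chr14:8296274-8318023, minus strand), an actin-associated stress-responsive gene, stood at 336 CPM with Pregabalin against 112 to 201 CPM in the other drugs of the run and 111 to 229 CPM in the vehicles (log2 fold change within the run 1.02 ± 0.18 SE; adjusted p = 0.00854). Glul (chr1:153899944-153909723, plus strand), glutamine synthetase, which turns glutamate into glutamine in astrocytes, stood at 1475 CPM against 712 to 1060 CPM in the run and 764 to 1220 CPM in the vehicles (log2 fold change 0.66 ± 0.13 SE; adjusted p = 0.0409). Mertk (chr2:128698956-128802894, plus strand), a receptor tyrosine kinase for engulfment, stood at 27.7 CPM against 11.5 to 18.1 CPM in the run and 12 to 19.9 CPM in the vehicles (log2 fold change 0.90 ± 0.14 SE; adjusted p = 0.000937). In the same library the mean log2 CPM of 7 astrocyte markers was 0.271 below the median of the other drugs of the run. This was rank 3 from the lowest of its 31 drugs, and 1 of the 7 markers had a positive log2 fold change. Against the vehicles that mean was 0.04 higher, within their range of -0.46 to 0.45. The part of astrocyte content in these 3 genes was not tested.

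The number after the run code in the library names, read here as a lane although no label says so, was shared with 3 other libraries. These stood at 4.6 CPM for Sult1a1, 33.5 to 40.7 CPM for Fkbp5 and 29.3 to 30.6 CPM for Tsc22d3, within the range of the run. The run's vehicle stood at 5.4, 36.2 and 35.7 CPM for the same genes. Against the 9 vehicles no gene passed for Pregabalin (0% of 15432 tested, with 599, or 3.88%, at an unadjusted p under 0.05), and the log2 fold changes of the 7 genes were 0.47 for Zbtb16 to 1.38 for Sult1a1. Sult1a1 and Tsc22d3 came nearest, each with an adjusted p of 0.147, and DESeq2 called 4 genes there, both of them included. Leaving out 1 of the 30 reference drugs at a time ended the call of Zbtb16 in 21 of 30 fits and that of Glul in 9, while the other 5 genes were called in all 30. With limma over all libraries and run code as a term, Sult1a1 alone was called.

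**Figure D1:**
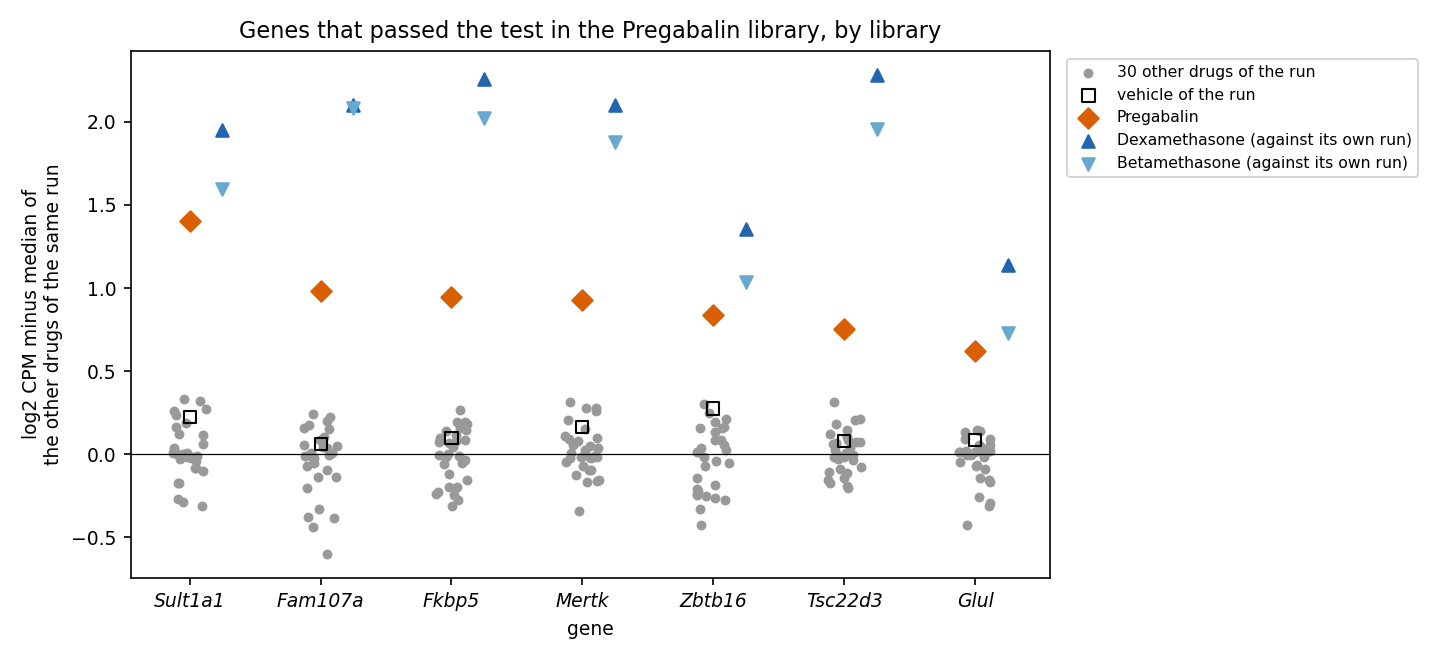
Log2 CPM of the 7 genes in each library of Pregabalin's run, minus the median of the 30 other drugs (grey points), with the vehicle of the run (square), Pregabalin (diamond) and, each against the other drugs of its own run, Dexamethasone and Betamethasone (triangles). Pregabalin lies above all 30 other drugs of the run for each gene, and the 2 glucocorticoids lie above Pregabalin.

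Across all libraries of the screen Pregabalin had rank 3 from the highest in 6 of the 7 genes, behind Dexamethasone and Betamethasone, and rank 9 in Zbtb16. Fkbp5 stood at 181 CPM with Dexamethasone and 151 CPM with Betamethasone, and Tsc22d3 at 181 and 136 CPM. These 2 drugs were sequenced in other runs than Pregabalin, so neither is a reference library of Pregabalin's comparison. The glucocorticoid comparison was made after the 7 genes were seen, so it describes these libraries and carries no test.

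Measured against the other drugs of their own runs, 214 genes were called higher for Dexamethasone, 1.38% of those tested, and 37 lower. For Betamethasone 78 were higher (0.497%) and 7 lower. A set of 62 genes rose in both, which is 29.0% of the first list and 79.5% of the second, and all 7 Pregabalin genes were among them. Of the 62, 61 passed the filter on low counts in Pregabalin's run, at least 1 of which, Lao1, may have passed through the Pregabalin library itself. Counts are therefore given for the 47 genes with a mean of at least 1 CPM in the 9 vehicles. With Pregabalin 37 of these 47 had a positive log2 fold change, with a median of 0.27, where 46.3% of all tested genes were positive and their median was -0.02. Outside the 7 called genes, 30 of 40 were positive with a median of 0.18, and 15 had an unadjusted p under 0.05 in the positive direction and 0 in the negative, where 3.41% of all tested genes were positive at that p. Across all genes the likeness was weak: Pearson's r between the log2 fold changes of Pregabalin and Dexamethasone was 0.036 over 15396 genes, and with Betamethasone 0.277 over 15477 genes, given as descriptions of single libraries.

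Further members of the shared set were highest in Pregabalin among the drugs of its run without passing the test. Mfsd2a, a lysolipid transporter, stood at 18.6 CPM against 4.2 to 11 CPM in the other drugs of the run (log2 fold change 1.21, adjusted p = 0.085), but the vehicles reached 19.6 CPM. Hif3a, a hypoxia-inducible factor subunit, stood at 17.1 CPM against 3.66 to 10.9 CPM (log2 fold change 1.24, adjusted p = 0.257). Acsl3, an acyl-CoA synthetase, had a log2 fold change of 0.59 (adjusted p = 0.282) and Ramp2, a receptor activity-modifying protein, 0.53 (adjusted p = 0.425).

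Other members with large glucocorticoid changes had values near or below 0 with Pregabalin. Pdk4, a kinase that restrains pyruvate oxidation, had a log2 fold change of 2.08 with Dexamethasone and 0.01 with Pregabalin. Lcn2, an iron-binding acute-phase protein, had 3.56 with Dexamethasone and -2.04 with Pregabalin (adjusted p = 0.739), at 0.211 CPM. Cd109, a surface protein that binds TGF-beta, had 1.91 and -0.81 (adjusted p = 0.666). Fkbp5 had a log2 fold change of 2.24 with Dexamethasone and 0.95 with Pregabalin. Of the 3 genes lowered by both glucocorticoids, Fgfrl1 had a log2 fold change of -0.67 with Pregabalin (adjusted p = 0.649), the lowest level of its run, and Clip2 and Rasa3 had 0.02 and -0.10.

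In the other 3 drugs the shares of positive genes stood near or below those of all genes. Of the same 47 genes, Oxcarbazepine had 15 positive with a median log2 fold change of -0.05 (48.2% of all genes positive, with Betamethasone among its 29 reference libraries), Vigabatrin 23 with a median of 0.00 (46.2% of all genes positive) and Methsuximide 26 with a median of 0.01 (48.5%). No gene of the set passed in any of these 3 drugs. Among the 7 Pregabalin genes, the log2 fold changes with Vigabatrin were 0.54 for Mertk, 0.49 for Fam107a and 0.32 for Fkbp5. They were 0.07 for Tsc22d3, 0.01 for Sult1a1, 0 for Glul and -0.35 for Zbtb16. Outside these 7, 18 of 40 set members were positive with Vigabatrin. The mean log2 CPM of the 47 set members with a mean of at least 1 CPM, taken relative to the other drugs of each library's run, was 1.2 for Dexamethasone, 1.1 for Betamethasone, 0.32 for Pregabalin and 0.17 for Theophylline, the next of the 218 drugs. For Oxcarbazepine, Vigabatrin and Methsuximide it was 0.02, 0.05 and 0.00. The set was chosen from the Dexamethasone and Betamethasone libraries, so their high means follow from that choice. Pregabalin's mean includes its 7 called genes and is not separate from those calls. Differences between Pregabalin and the other 3 drugs were not tested.

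**Figure D2:**
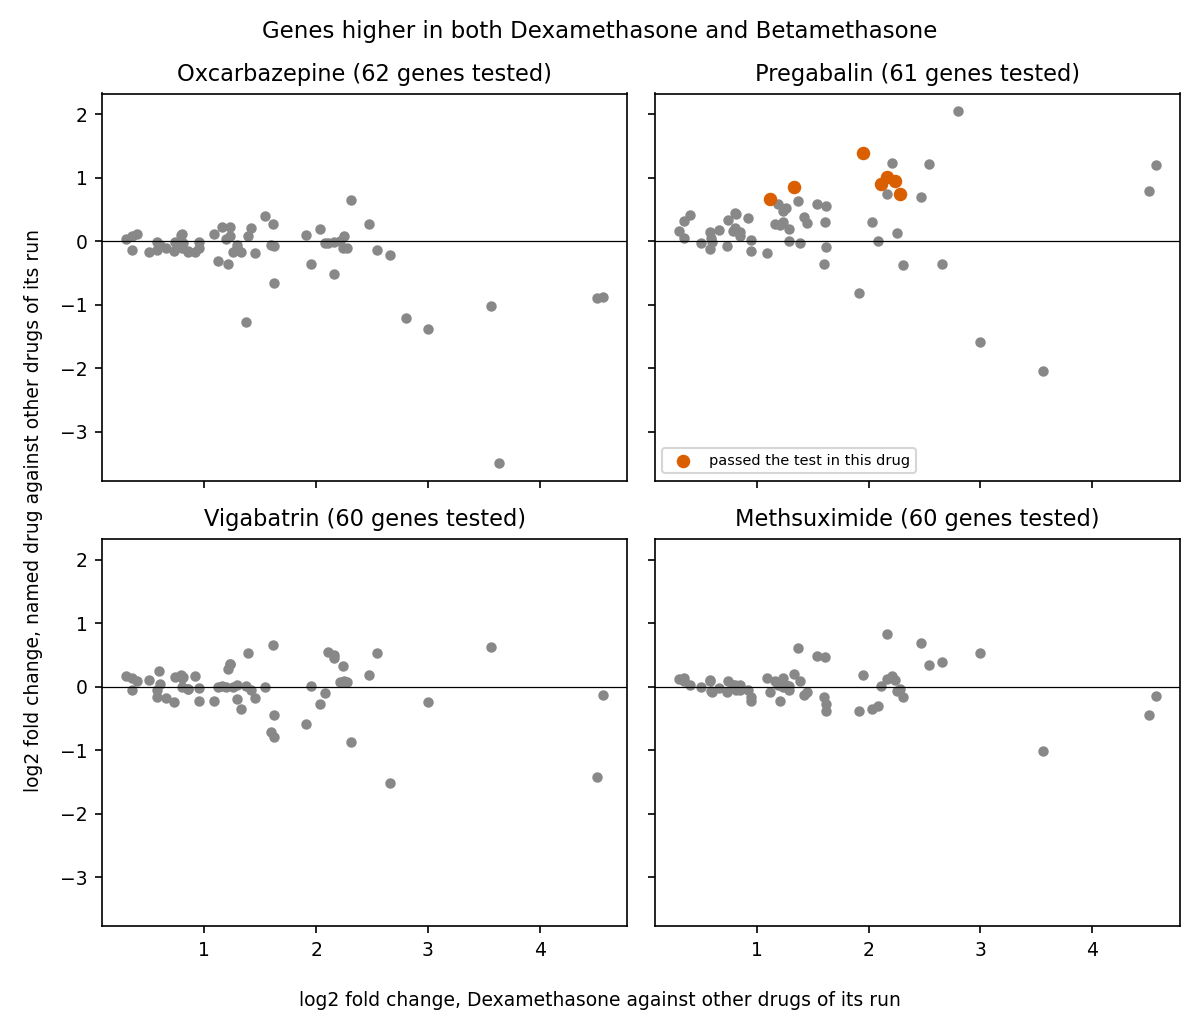
Log2 fold change with each of the 4 drugs (vertical axis) against that with Dexamethasone (horizontal axis), each against the other drugs of its own run, for the genes higher with both Dexamethasone and Betamethasone. Coloured points passed the test: 7 genes with Pregabalin, 0 with each of the other 3 drugs.

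The glucocorticoid receptor binds DNA at an inverted repeat of a hexamer spaced by 3 bases, and promoter windows of the called genes were searched for its letters. The windows are RefSeq promoters on GRCm38.p6, 250 bases before to 50 after each annotated start, and 6 of the 7 genes had one. The motif searched, GNACA and TGTNC with 3 bases of any kind between them, reads the same on both strands and occurred in 156 of 32851 windows, 0.475%. Among the called genes it was found in Fam107a, in 2 of its windows, which are nearly the same stretch and belong to starts inside the gene as GENCODE gives it. Its window at the outer start held no match. The shorter core ACANNNTGT, which every match of the longer motif contains, occurred in 6.85% of all windows and in those of Fam107a and Glul. Both are shown because they are the 2 called genes with a match, with the bases before the start in lower case and the match in capitals (at -120 in Fam107a and -25 in Glul, counted from the window's own start), the first from chr14:8309778-8310027 on the minus strand and the second from chr1:153899679-153899928 on the plus strand:
Fam107a: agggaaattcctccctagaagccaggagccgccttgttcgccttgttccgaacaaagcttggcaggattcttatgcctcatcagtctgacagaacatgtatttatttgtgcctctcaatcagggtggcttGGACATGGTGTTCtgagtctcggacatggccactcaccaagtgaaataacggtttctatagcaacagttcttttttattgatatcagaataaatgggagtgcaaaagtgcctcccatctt
Glul: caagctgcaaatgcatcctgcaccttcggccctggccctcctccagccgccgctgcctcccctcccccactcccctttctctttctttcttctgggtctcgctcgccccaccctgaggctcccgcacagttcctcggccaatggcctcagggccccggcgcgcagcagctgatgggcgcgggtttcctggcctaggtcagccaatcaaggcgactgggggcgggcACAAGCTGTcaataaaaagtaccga
A match is a description of these letters and was not tested as a binding site. No match says only that the letters are not in the window, and elements farther from the start were not searched.

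For the drugs' own targets, no gene of the drug's target list passed the test in any of the 4 comparisons within run. Abat, the target of Vigabatrin, stood at 555 CPM in the Vigabatrin library, within the 524 to 707 CPM of the other drugs of the run (median 582 CPM) and the 522 to 766 CPM of the vehicles (median 659 CPM). Its log2 fold change within the run was -0.12, with a 95% interval of -0.37 to 0.12. Aldh5a1, which oxidises the next intermediate in GABA breakdown, had -0.04 (-0.19 to 0.12). Gad1 and Gad2, the GABA-synthesising enzymes, had -0.16 (-0.40 to 0.08) and -0.12 (-0.34 to 0.10). Of the 12 tested genes of GABA synthesis, transport and breakdown, 1 was positive with Vigabatrin, with a median of -0.10 against -0.02 over all genes, and none passed (0.00644% of all genes passed in this comparison). Their mean log2 CPM relative to the run's median was -0.191, rank 6 from the lowest of 30 drugs. In the same run Rufinamide also had 1 of 12 positive, with a median of -0.164. Topiramate had 6, Temazepam 7, Lacosamide 10 and Triazolam 11. The astrocyte markers of Vigabatrin's library stood at -0.301 relative to the run's median, rank 5 from the lowest. The part of astrocyte content in these GABA gene values was not tested.

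Among GABA receptor genes, Gabrg3, a gamma subunit, had the smallest p with Vigabatrin: its log2 fold change was -0.37 (-0.56 to -0.18; unadjusted p = 0.00046), which did not pass after adjustment. Gabrb1 was the other of the 15 tested receptor genes at an unadjusted p under 0.05, with -0.18 (-0.35 to -0.01). Against the same background 6.35% of all tested genes were at such a p.

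The alpha2delta genes that encode Pregabalin's binding sites also did not pass. Cacna2d1, the most abundant at 34.2 RPKM ± 5.80 (SD, n = 9) in the vehicles, stood at 266 CPM with Pregabalin, within the 157 to 291 CPM of the run (median 224 CPM; log2 fold change 0.25, 95% interval -0.27 to 0.76). Cacna2d2 had 0.13 (-0.08 to 0.34) and Cacna2d3 0.34 (-0.13 to 0.81). Cacna2d4 stood at 0.109 RPKM ± 0.0251 (SD, n = 9) in the vehicles. The thrombospondins, secreted by astrocytes and known as alpha2delta ligands, included Thbs1 with -0.42 (-1.44 to 0.60) and Thbs3 with -0.06 (-0.38 to 0.27).

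With Oxcarbazepine, the sodium channel alpha subunits Scn1a, Scn2a1, Scn3a and Scn8a had log2 fold changes of 0.02 (-0.27 to 0.32), 0.19 (-0.23 to 0.61), 0.16 (-0.21 to 0.54) and 0.01 (-0.34 to 0.36). Scn2a1 was the most abundant of them at 43.0 RPKM ± 5.9 (SD, n = 9) in the vehicles. The beta subunit gene Scn4b had the largest estimate, 0.86 (-0.12 to 1.85). With Methsuximide, the T-type channel genes Cacna1g, Cacna1h and Cacna1i had 0.08 (-0.16 to 0.31), 0.12 (-0.28 to 0.51) and 0.27 (-0.03 to 0.56). The upper bounds of these intervals, 0.31 to 1.85, mark changes that these libraries could not tell from 0.

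**Figure D3:**
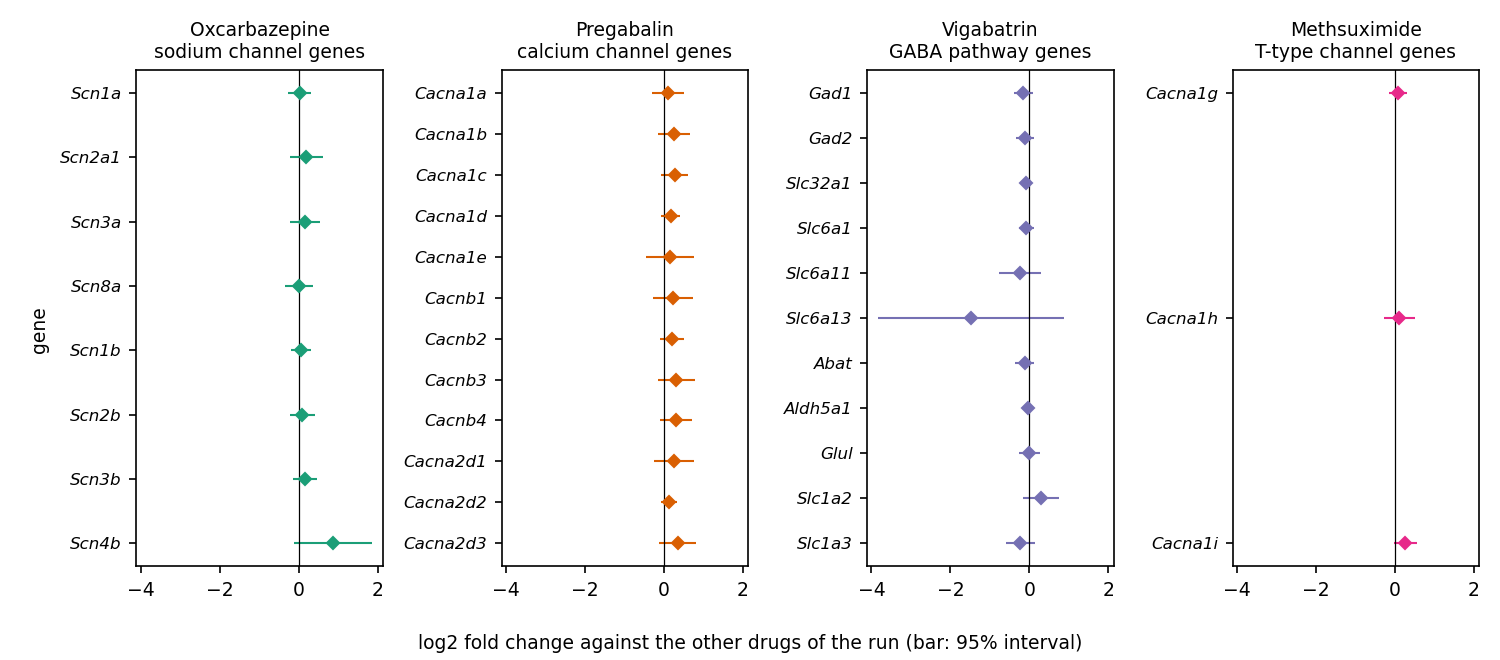
Log2 fold change (points) with 95% interval (bars) of each drug's target genes with a mean of at least 1 CPM, each against the other drugs of its run. All of the intervals shown include 0.

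Small positive values of sodium and calcium channel genes appeared in all 4 libraries, and also in other drugs of the same runs. Relative to the run's median, the mean log2 CPM of 13 potassium channel genes was -0.04 with Oxcarbazepine and with Vigabatrin. It was 0.17 with Pregabalin and 0.08 with Methsuximide. All 8 sodium channel genes were positive with Oxcarbazepine and with Pregabalin, 6 of 8 with Vigabatrin and 7 of 8 with Methsuximide, with medians of 0.13, 0.29, 0.11 and 0.12. Their mean log2 CPM had rank 2 from the highest in the first 3 runs, of 30, 31 and 30 drugs and with a tie in the run of Vigabatrin, and rank 4 of 16 in the last. Among the other drugs looked at, Temazepam had 8 of 8 positive with a median of 0.28, and Ethosuximide, Levetiracetam and Betamethasone 7 of 8 each, whereas Oxazepam and Lacosamide had 1 of 8. In the comparison of the 4 drugs together within run code, 8 of 8 sodium channel genes, 12 of 13 high-voltage calcium channel and alpha2delta genes, 3 of 3 T-type genes and 14 of 15 GABA receptor genes were positive, with medians of 0.19, 0.16, 0.25 and 0.16, where 48.4% of all genes were positive. Neuron markers had the same sign, with 8 of 8 positive and a median of 0.12, and astrocyte markers the opposite one, with 1 of 7 positive with a median of -0.21. The part of these cell markers in the channel values was not tested, and no gene of any of these lists passed.

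Pregabalin's library had the highest mean log2 CPM of its 31 drugs for 4 such lists. GABA receptor genes stood 0.26 above the median of the other drugs of the run, glutamate receptor genes 0.26, potassium channel genes 0.17 and T-type channel genes 0.41. Relative to the mean of the vehicles the same lists stood at 0.095, 0.132, 0.089 and 0.153. Each lay within the range of the vehicles, whose highest values were 0.185, 0.200, 0.124 and 0.229. Gria1, an AMPA receptor subunit, had a log2 fold change of 0.33 (0.12 to 0.53) and Cacna1g 0.50 (0.03 to 0.97), neither passing after adjustment. The neuron marker mean of the same library had rank 3 from the highest of 31, at 0.23.

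Activity was read from 14 immediate early transcription factor genes, among them Fos, Npas4 and Egr1, which neurons induce within minutes of firing and calcium entry. None passed in any of the 4 drugs. Fos stood at 22.8 CPM with Oxcarbazepine, 11.3 CPM with Pregabalin, 24.5 CPM with Vigabatrin and 34.5 CPM with Methsuximide, and in the vehicles at 16.6 to 139 CPM with a median of 52.2 CPM. The Pregabalin value lay below all 9 vehicles and below the 15.8 to 161 CPM of the other drugs of its run (log2 fold change -1.84, 95% interval -3.82 to 0.15). Npas4, whose protein organises inhibitory synapses, stood at 11.7, 10.0, 20.1 and 33.1 CPM in the same order, and at 8.69 to 147 CPM in the vehicles.

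As a mean over the 14 genes, the 9 vehicles themselves spread from -1.2 to 1.2 around their average on the log2 scale. Oxcarbazepine stood at -0.54, Vigabatrin at -0.57 and Methsuximide at -0.02, all inside that range, and Pregabalin at -1.28, below the lowest vehicle. Relative to the median of the other drugs of the run, the means were -0.07 for Oxcarbazepine (rank 14 from the lowest of 30), -0.52 for Pregabalin (rank 4 of 31), -0.43 for Vigabatrin (rank 8 of 30) and 0.34 for Methsuximide (rank 11 of 16). Methsuximide is the case where 2 summaries differ in sign: 3 of its 14 genes had a positive log2 fold change with a median of -0.30, the log2 fold change being taken against the mean level of the run and the list mean against the median library.

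The same runs held drugs whose action on excitability is well known. Benzodiazepines, which enhance GABA-A receptors, were low: Oxazepam stood at -0.77 against its run, Temazepam at -1.34 and Triazolam at -1.71. Blockers of L-type calcium channels, the channels that couple firing to these genes, stood at -1.01 (Nimodipine), -0.77 (Nifedipine) and -0.42 (Diltiazem). Oxazepam, Triazolam and Nimodipine were the lowest drugs of their runs. Other antiepileptic drugs of the 4 runs ranged from -0.62 for Lacosamide to 1.1 for Primidone, with Levetiracetam at 0.00, Rufinamide at 0.16, Topiramate at 0.43 and Ethosuximide, a succinimide like Methsuximide, at 0.73. Within its run Pregabalin therefore lay between Oxazepam and the middle, and Vigabatrin within its run between Temazepam and the middle. None of these differences was tested.

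**Figure D4:**
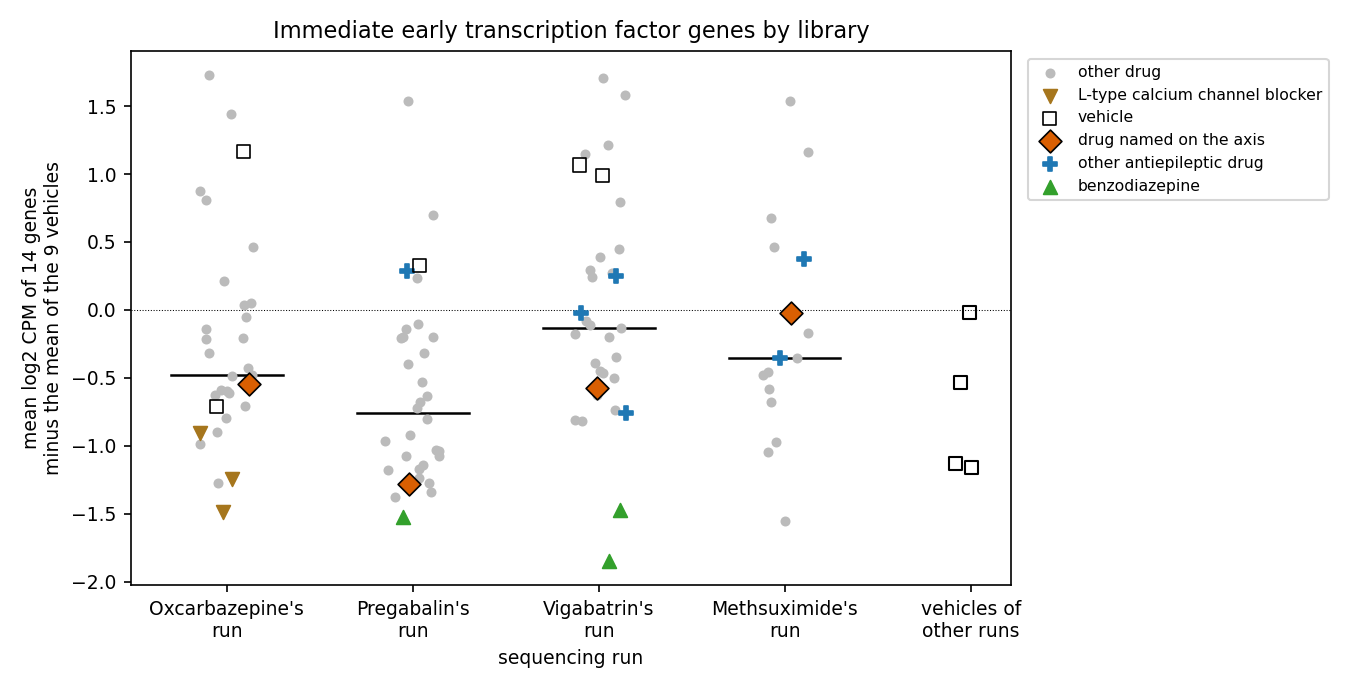
Mean log2 CPM of 14 immediate early transcription factor genes in each library, minus the mean of the 9 vehicles, by sequencing run; lines mark the median of the other drugs of the run, diamonds the 4 drugs and squares the vehicles. Vehicles range from -1.2 to 1.2, and the vehicles of the runs of Pregabalin and Vigabatrin lie above those drugs.

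The level of the vehicles differed by run. The 2 vehicles of Vigabatrin's run stood at 0.99 and 1.07 and that of Pregabalin's run at 0.33. Those of Oxcarbazepine's run stood far apart, at 1.2 and -0.71, and the 4 vehicles of runs outside these 4 stood between -1.16 and -0.02. Centred on the vehicles of the run, Pregabalin's mean was -1.61 and Vigabatrin's -1.60. Most of that distance was shared by the runs: for the immediate early transcription factors, the vehicle of Pregabalin's run stood 1.1 above the median of its other drugs, and those of Vigabatrin's run 1.1 and 1.2 above theirs. For 18 activity-dependent effector genes, such as Bdnf and Nptx2, the means relative to the other drugs of the run were -0.16, -0.32, -0.09 and 0.25 for Oxcarbazepine, Pregabalin, Vigabatrin and Methsuximide, and -1.51 for Pregabalin and -1.23 for Vigabatrin when centred on the run's vehicles.

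Vigabatrin had 1 called gene within its run, Spn, which encodes the leukocyte surface protein CD43. It rested on 15 counts, 0.409 CPM, against 0 to 4 counts in the other 31 libraries of the run, 7 of which had 0. It passed the filter on low counts through the Vigabatrin library, limma over all libraries did not call it, and it carries no weight as a result. Its mean of 0.0407 CPM over all libraries is below the level set for naming genes, and it is named because it was the only call, after its value was seen. Next came genes that did not pass: Dusp18, a dual-specificity phosphatase, at 55.3 CPM against 30.7 to 44.4 CPM in the other drugs (log2 fold change 0.61 ± 0.11 SE; adjusted p = 0.0717), Ccnjl at 9.56 against 4.1 to 6.88 CPM (0.77; adjusted p = 0.117) and the kinase gene Nuak1 at 68.4 against 40.8 to 58.1 CPM (0.51; adjusted p = 0.161). In the lower direction Nf1, the Ras regulator neurofibromin, stood at 147 CPM against 176 to 208 CPM (-0.40; adjusted p = 0.164), followed by Purg (-0.46; adjusted p = 0.285) and Frmd5 (-0.45; adjusted p = 0.319). Each of these 6 values lay outside the range of all 29 other drugs, which nearly follows from the choice of these genes against the same libraries. The proliferation markers of Vigabatrin's library stood 0.41 above the median of its run, rank 2 from the highest of 30, with 6 of 6 positive.

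Oxcarbazepine had 0 called genes of 15699 within its run (0%), with 438 at an unadjusted p under 0.05 (2.79%), and DESeq2 and limma called 0 too. The 3 smallest p-values among higher genes belonged to Trim17, a ubiquitin ligase, at 10.5 CPM against 6.05 to 8.73 CPM (log2 fold change 0.57), Cep83os at 29.5 against 19.3 to 25.8 CPM (0.40) and AA986860 at 5.34 against 2.34 to 5.01 CPM (0.80). Among lower genes they were Rpap3 (-0.28), Gm26564 (-0.57) and Tpt1, the translationally controlled tumour protein, at 6.66 against 9.12 to 16.1 CPM (-0.71). The adjusted p was 0.999 for all 6. Beside these, the mean log2 CPM of 11 genes of GABA synthesis, transport and breakdown stood 0.28 below the median of the run, the lowest of its 30 drugs. Among the 11, Slc6a13, a GABA transporter of the meninges, had the one unadjusted p under 0.05, at -1.89 (-3.69 to -0.09), while Gad1 had -0.21 (-0.54 to 0.12). In the same library the inhibitory neuron markers stood 0.187 below the median of the run (rank 3 from the lowest of 30) and the mural and fibroblast markers 0.307 below it, and the latter were at -0.87 against the vehicles, whose lowest was -0.82. Their part in the GABA gene values was not tested.

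Methsuximide had 0 called genes of 15503 (0%), with 252 at an unadjusted p under 0.05 (1.63%). DESeq2 called 0 and limma 1. The smallest p-values belonged to Lox, the collagen cross-linking enzyme lysyl oxidase, at 4.61 CPM against 1.4 to 3.3 CPM in the other 15 drugs (log2 fold change 0.96), Cdk6, a cell cycle kinase, at 8.0 against 4.2 to 6.51 CPM (0.54) and Prr18 (0.40), and in the lower direction to Dcxr (-0.42), Apip, an enzyme of methionine salvage (-0.35), and Tap2, a peptide transporter of antigen presentation (-0.47). All 6 had an adjusted p of 0.995.

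Taking the 4 drugs as 1 group, 0 of 15591 genes passed within run code (0%), although 2598 had an unadjusted p under 0.05 (16.7%). DESeq2 called 0 and limma 3. The smallest adjusted p was 0.154. Genes were named here only with a mean of at least 1 CPM and the same side of the run median in all 4 drugs. That shared side is therefore no result. Under this rule, the 3 smallest p-values among higher genes belonged to Mtfp1, a mitochondrial fission gene (log2 fold change 0.33 ± 0.07 SE), Nuak1 (0.30 ± 0.07 SE) and Ccbe1 (0.85 ± 0.20 SE). Among lower genes they belonged to Bms1, a ribosome biogenesis gene (-0.17 ± 0.04 SE), Tpt1 (-0.47, adjusted p = 0.167) and Tmem184b (-0.18, adjusted p = 0.261). Mtfp1, Nuak1, Ccbe1 and Bms1 each had an adjusted p of 0.154. Against the 9 vehicles, 0 of 14841 genes passed for the 4 together (0%; 1714, or 11.5%, at an unadjusted p under 0.05). None passed for Oxcarbazepine (592, or 3.84%, at that p), Vigabatrin (988, 6.41%) or Methsuximide (269, 1.75%). DESeq2 called 152 genes for the 4 together there, 97 for Vigabatrin, 5 for Oxcarbazepine and 0 for Methsuximide. Without Oxcarbazepine and the other drugs of its run, Betamethasone among them, the within-run comparison of the remaining 3 drugs called 5 genes. Of these, Sult1a1, Fkbp5 and Mertk are 3 of the 7 Pregabalin genes. Without Methsuximide and the other drugs of its run, the comparison called 3.

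No gene of the NRF2, ATF4, ER chaperone, heat shock, hypoxia or xenobiotic metabolism lists passed in any of the 4 drugs within run. All 8 NRF2 targets were negative with Pregabalin, Vigabatrin and Methsuximide and 6 of 8 with Oxcarbazepine, with medians of -0.45, -0.51, -0.29 and -0.18, where 46.3%, 46.2%, 48.5% and 48.2% of all genes were positive. Their mean was the lowest of the 30 drugs of Vigabatrin's run. The same held in other drugs: Primidone, Topiramate, Ethosuximide and Betamethasone each had 0 of 8 positive. The cholesterol biosynthesis genes were positive in 14 of 14 with Pregabalin, 13 of 14 with Vigabatrin and with Methsuximide, and 8 of 14 with Oxcarbazepine, with medians of 0.20, 0.23, 0.28 and 0.03, and 0 passed. Primidone and Ethosuximide also had 14 of 14 positive. The 8 ER chaperone genes with Pregabalin had the lowest mean of its 31 drugs, 0.121 below the median of the run, and at -0.13 against the vehicles stood below their minimum of -0.10.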

How the data were processed

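RNA-seq was deposited for 218 drugs, 1 library each, and 9 vehicles. Groups come from the agent label, and the run code from the library name. The authors' counts are whole reads per Ensembl gene (31689 genes) and not normalized; the RPKM values, also deposited by the authors, served for levels between genes. The submitters' processing notes name STAR 2.4.0, Subread 1.4.6, limma, edgeR 3.10.5 and mm10, with no role given. The library kit was stranded, per the labels' protocols; whether counting used strand is not given in the sources used here.

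The members, though defined by label alone, and the gene lists were chosen with earlier results of these data known. Counts were tested in R 4.3.3 with edgeR 4.0.16 (TMM factors, filterByExpr, quasi-likelihood F test, Benjamini-Hochberg adjustment), with only the libraries of the comparison, and run code as a term for the 4 drugs together. The standard error is the log2 fold change over the root of F, and intervals are 95%. CPM uses TMM factors over all libraries. List means use log2 CPM with a prior count of 1 over genes with a mean of at least 1 CPM. No SD exists for a drug with 1 library, and p-values measure only the spread between the reference libraries.

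Named genes were, per comparison, up to 10 called genes each way with a mean of at least 1 CPM, or, where fewer than 3 passed within a run, the 3 with the smallest p each way as not passing, besides the target, GABA and activity genes. For the 4 drugs together, a named gene also had to lie on the same side of the reference in all 4. Gene positions are from GENCODE vM21 (31328 of 31689 identifiers matched, all on the same chromosome). The tests were also run on counts simulated from the fitted model, without effects of run or of the reference drugs. In that simulation a drug's library varies like its references by construction, so it cannot check this assumption. DESeq2 1.42.0, limma 3.58.1, RLE factors, no filter, other references and leaving out libraries were alternatives. No column of the tables was left unmapped (0).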

Additional observations from a re-analysis of the deposited data

How the results depend on the processing

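Of 157 alternative counts and list means, 140 stayed within 1.5 times the main count or within the spread of the vehicles, and no list mean or called gene changed sign. Named genes that were not called were not followed through these alternatives. DESeq2 called more genes against the vehicles: 5 for Oxcarbazepine, 4 for Pregabalin, 97 for Vigabatrin and 152 for the 4 together, against 0 by edgeR in each; leaving out each vehicle gave 0 calls in each. For Pregabalin within run, other settings gave 5 to 9 calls except limma over all libraries with run code, which called 1 gene, Sult1a1; with Dexamethasone and Betamethasone left out of that fit, a choice made after seeing the data, it called 5, among them Fkbp5, Mertk and Tsc22d3, and Fam107a had an adjusted p of 0.169. Leaving out each of the 30 reference drugs in turn, also chosen after seeing the data, gave 5 to 9 calls: Zbtb16 was lost in 21 of the 30 (adjusted p up to 0.0731) and Glul in 9 (up to 0.0585), and the other 5 genes were called in all 30. For Vigabatrin within run DESeq2 called 7, vehicles added to the reference 2, other antiepileptic and calcium channel drugs and benzodiazepines left out 3, and limma 2, Stat6 and Zfp804b, both lower, with Spn no longer called. For the 4 together within run limma called 3. Leaving out each of the 4 drugs along with the other drugs of its run gave 0 to 5 calls (5 without Oxcarbazepine's run, 3 without Methsuximide's). The cause of these differences was not tested. Centred on the vehicles of the run, the immediate early means were -1.607 for Pregabalin and -1.599 for Vigabatrin, and the effector means -1.514 and -1.229. No paired analysis was possible because each drug has 1 library.

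With 1 library per drug, no result has a replicate of the drug, and drug, culture well and library cannot be told apart. The reference drugs have effects of their own, which widen the spread of the test. Doses are not given in the sources used here, so the absence of calls holds for the applied doses, 8 h of treatment and these cultures. Depth limits genes with few counts, as Spn.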
